A study of Homo sapiens with 14 samples.

Results

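The mitochondrial ribosomal protein genes were taken as every probe of the array whose annotated symbol begins with MRPL or MRPS followed by a digit. This gave 79 genes read by 107 probes, of 12393 named genes in all. Of these 79 genes, 50 carried an MRPL symbol (large subunit) and 29 an MRPS symbol (small subunit). All 79 passed the detection filter (a detection p-value under 0.05 on at least 2 of 14 arrays), as did 11983 genes of the whole array. By the known structure of the human mitochondrial ribosome, 50 of the genes encode large subunit proteins and 26 small subunit proteins, because MRPS18A and MRPS30 sit in the large subunit. The remaining 3 are non-coding: the pseudogenes MRPL42P5 and MRPS31P5 and the antisense RNA gene MRPL20-AS1.

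The samples came from 2 human prostate cancer cell lines on Illumina BeadChips, hybridised with biotin-labelled amplified RNA. LNCaP-abl is a subline of LNCaP kept in phenol red-free medium with 10% charcoal-stripped (steroid-depleted) serum, and LNCaP was kept in medium with 10% fetal bovine serum, so line and medium cannot be told apart. There were 6 groups. In both lines, 3 arrays followed 48 h of treatment with dilazep, a nucleoside transport inhibitor, at 50 µM, and the controls were 2 arrays with water (H2O) and 2 with DMSO. The labels do not say which vehicle belongs to dilazep, so the controls below are the average of both vehicle means. The H2O and DMSO arrays carry a treatment note on another compound, bufalin, and if they came from another experiment, that experiment and the drug cannot be told apart. Whether replicate arrays came from separate cultures is not stated, and the p-values reflect the variation among the arrays alone, and that variation could be technical.

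Mitochondria carry their own ribosome, which makes only the few membrane-embedded proteins encoded in mitochondrial DNA, all of them subunits of the respiratory chain and the ATP synthase. Its RNAs come from mitochondrial DNA, but each of its proteins is encoded in the nucleus, made in the cytosol and imported. Part of these proteins have a counterpart in bacteria, and the rest were gained in the mitochondrial lineage, where they surround and reinforce a shortened RNA core. The large subunit joins amino acids and releases the chain through an exit tunnel next to the inner membrane, its stalk recruits translation factors, and the small subunit reads the messenger RNA.

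Promoters of these genes often have sites for the ETS factor GABPA and for YY1. Of the 8 genes with the largest falls in LNCaP, 4 had such letters, or those of NRF1, before their start in the RefSeq promoter windows of build GRCh38.p14 and outside any neighbouring gene's start. The same search among the 8 genes with the largest falls in LNCaP-abl found no such letters in that stretch. Among the LNCaP genes, MRPL13 had no window, and the windows of MRPS18C (ETS) and MRPL32 (YY1) held letters only outside that stretch. Among the LNCaP-abl genes, MRPL2 had no window, and the windows of MRPS16 (ETS) and MRPL46 (YY1) held letters only outside that stretch. The share over all genes was not counted for that stretch, so these counts do not compare the lines. The runs found are shown because these genes are described below, and a link between the letters and the falls was not tested. Capitals mark CCGGAAG (ETS), AAGATGGC (YY1) or the NRF1 letters (GCGC, any base, TGCGC), read on either strand. MRPL47 lies on the minus strand (chr3:179604651-179604750), as do MRPL3 (chr3:131502977-131503023) and MRPL51 (chr12:6493340-6493401), and MRPL30 lies on the plus strand (chr2:99181059-99181097). Each run is given in the direction of the gene.
MRPL47: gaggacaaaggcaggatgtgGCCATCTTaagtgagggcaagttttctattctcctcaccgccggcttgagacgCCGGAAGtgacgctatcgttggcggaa
MRPL3: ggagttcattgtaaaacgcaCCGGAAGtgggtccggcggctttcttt
MRPL51: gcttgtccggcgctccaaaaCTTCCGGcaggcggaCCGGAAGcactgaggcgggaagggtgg
MRPL30: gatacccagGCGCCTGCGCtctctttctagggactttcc

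Arrays were alike in depth: 17925 to 19856 probes per array had a detection p-value under 0.05, and arrays of one group correlated at 0.987 to 0.992. Between 78 and 79 of the 79 genes were detected on each array. Only the 2 pseudogenes were missing anywhere, MRPL42P5 on 1 array and MRPS31P5 on 7. The luminal prostate markers KLK2, FOLH1, TMPRSS2, KRT8, KRT18 and HOXB13 were detected on all 14 arrays and KLK3 on 11. Of 11 markers of other cell types, 4 had a named probe: PECAM1 (endothelium) was detected on 0 arrays, CD68 (macrophages) on 14, VWF (endothelium) on 12 and COL1A1 (fibroblasts) on 11. The summed linear level of the 3 detected ones was 1026 to 1137 in LNCaP-abl with dilazep, against 609 to 940 in its controls, and 938 to 1426 in LNCaP with dilazep, against 890 to 978 in its controls. With dilazep CD68 rose (0.54 on the log2 scale in LNCaP-abl, 1.01 in LNCaP) and VWF fell (-0.89 and -1.82), and their part in the results below was not tested. In a bulk sample, fewer cells of a kind and less RNA per cell cannot be told apart.

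Most mitochondrial ribosomal protein genes were lower with dilazep in each line. In LNCaP-abl, 52 of 79 fell and 7 rose at an adjusted p under 0.05, where 23.3% of all genes tested fell and 27.2% rose. In LNCaP, 44 fell and 4 rose, where 19.7% of all genes tested fell and 24.2% rose. The tests were limma fits over all 11983 genes with Benjamini-Hochberg adjustment. The median log2 change of the 79 genes was -0.43 in LNCaP-abl and -0.29 in LNCaP, and that of all genes tested was 0.04 in each line. The dilazep arrays lay below all control arrays for 50 genes in LNCaP-abl (24.5% of all genes tested did so) and for 47 in LNCaP (21% of all genes). They lay above all control arrays for 7 genes in LNCaP-abl (28.5% of all genes) and for 5 in LNCaP (26% of all genes). With median scaling in place of quantile normalization, the medians of all genes moved to -0.08 in LNCaP-abl and 0.09 in LNCaP, and the counts of genes lower and higher became 56 and 3 in LNCaP-abl and 33 and 4 in LNCaP. Rises then made up 37.8% of the calls over all genes in LNCaP-abl and 62.8% in LNCaP, against 53.9% and 55.1% with quantile normalization.

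The shift was visible array by array. For each array, the deviation of each gene from its mean over the 14 arrays was taken, and the median over genes was computed on the log2 scale. For the 50 MRPL genes this median was -0.24, -0.27 and -0.31 on the LNCaP-abl dilazep arrays, against 0.08 and 0.18 on the H2O arrays and 0.18 and 0.09 on the DMSO arrays of that line. In LNCaP it was -0.15, -0.11 and -0.22 with dilazep, against 0.17 and 0.17 with H2O and 0.16 and 0.22 with DMSO. For the 29 MRPS genes it lay between -0.31 and -0.21 on the LNCaP-abl dilazep arrays and between 0.09 and 0.19 on the controls. In LNCaP the MRPS medians lay between -0.16 and -0.13 with dilazep and between 0.14 and 0.21 in the controls. In neither line and for neither subunit did the dilazep arrays overlap the control arrays. The median of all genes tested stayed between -0.03 and 0.03 on every array. Quantile normalization gives all arrays the same distribution, so this median is largely held near 0 by the processing and is no independent reference.

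**Figure D1:**
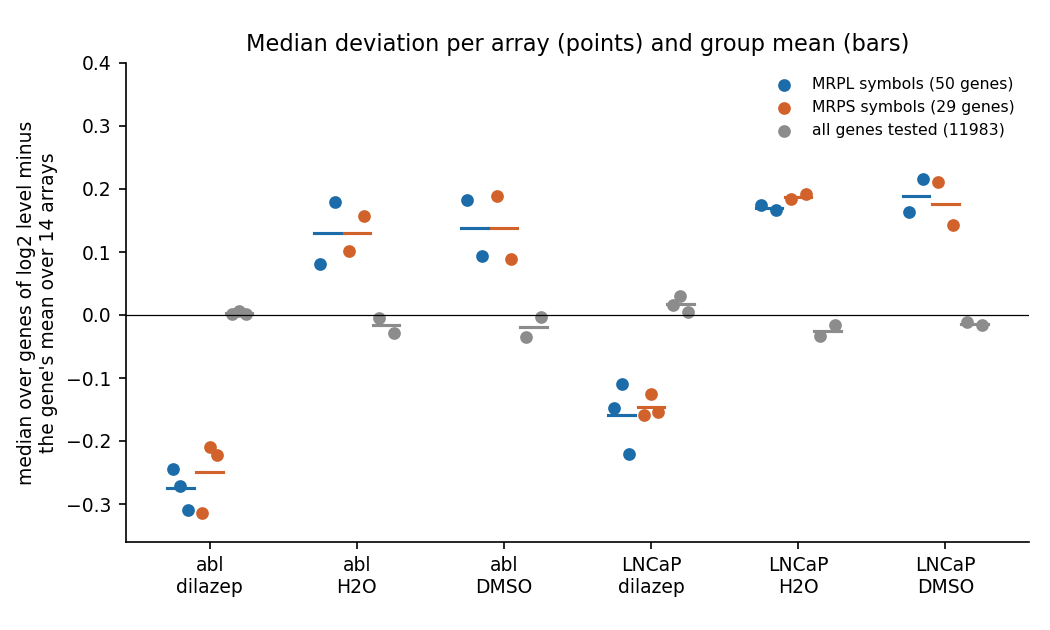
Median, over the 50 MRPL genes, the 29 MRPS genes and all 11983 genes tested, of the log2 level minus the gene's mean over 14 arrays, for each array (points) with the group mean (bars). Both subunits lie below 0 on all dilazep arrays of both lines and above 0 on all H2O and DMSO arrays. All genes lie near 0, where quantile normalization largely holds them.

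In LNCaP-abl the largest falls were in genes of the large subunit stalk and the small subunit. MRPS2, a small subunit protein with a bacterial counterpart, had log2 levels of 8.14, 8.29 and 7.90 with dilazep, against 9.43 and 9.46 with H2O and 9.21 and 9.47 with DMSO. No dilazep array came within the range of the controls. Its log2 change was -1.28 (SE 0.12, adjusted p = 3.54e-06), which means that the level fell by 58.9%. MRPL11, a protein of the stalk base, had 9.38, 9.30 and 9.47 with dilazep, against 10.45 and 10.68 with H2O and 10.42 and 10.35 with DMSO. The groups did not overlap, and the log2 change was -1.09 (SE 0.10, adjusted p = 1.94e-06). A second probe of MRPL11 gave -1.04, and the other one gave -0.38 with an adjusted p of 0.0932 in a fit over all kept probes. MRPL12, the stalk protein that also binds the mitochondrial RNA polymerase, had 9.93, 9.80 and 10.05 with dilazep, against 11.01 and 11.02 with H2O and 10.70 and 11.01 with DMSO. Its dilazep arrays were again below every control, with a log2 change of -1.01 (SE 0.11, adjusted p = 1.01e-05). MRPL10, which anchors the stalk, changed by -0.43 (SE 0.14, adjusted p = 0.0212). This call was lost without any one of 4 arrays of the line, where the adjusted p reached 0.087 without dilazep replicate 3, and with DMSO alone as the control (adjusted p = 0.0973). All 3 stalk genes thus fell in LNCaP-abl.

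Other genes with large falls in LNCaP-abl were spread over both subunits. MRPS16, the counterpart of bacterial S16 in the small subunit, had log2 levels of 9.08, 9.15 and 9.19 with dilazep, against 10.07 and 9.97 with H2O and 10.08 and 10.13 with DMSO, without overlap. It changed by -0.93 (SE 0.09, adjusted p = 5e-06). MRPS17, the counterpart of S17, changed by -0.89 (SE 0.13, adjusted p = 8.69e-05). MRPL1, of the L1 stalk through which spent transfer RNA leaves, and MRPL2, which lies near the catalytic centre, changed by -0.88 each (SE 0.10 and 0.08). MRPL46, a mitochondria-specific protein of the central protuberance, the crest of the large subunit, changed by -0.85 (SE 0.11, adjusted p = 5.1e-05). The dilazep arrays lay below all control arrays for each of these genes. MRPS34 changed by -0.73, MRPL44 by -0.63, the large subunit protein MRPS30 by -0.57, MRPS12 by -0.44 and MRPS7 by -0.39, each with an adjusted p under 0.05. MRPS12 rested on less: its call was lost without any one of 5 arrays of the line (adjusted p up to 0.0783, without dilazep replicate 3) and with DMSO alone (0.117). Of its 3 other probes, 2 also fell in a limma fit over all kept probes (-0.44 and -0.51, adjusted p of 0.00595 and 0.0166). The last, detected on only 6 arrays, gave 0.11 and was not called.

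In all, 5 protein-coding genes rose in LNCaP-abl. MRPL54, a mitochondria-specific large subunit protein, had log2 levels of 11.29, 11.13 and 11.05 with dilazep, against 10.60 and 10.66 with H2O and 10.54 and 10.53 with DMSO. All dilazep arrays were above all controls, and the log2 change was 0.57 (SE 0.08, adjusted p = 0.000102). MRPS14, the counterpart of bacterial S14, also changed by 0.57 (SE 0.14, adjusted p = 0.00499), a call lost with H2O alone as the control (0.40, adjusted p = 0.0776). MRPL49 changed by 0.48, MRPL41 by 0.29 and MRPL33 by 0.28, with adjusted p of 0.000414, 0.0102 and 0.0192. With median scaling MRPL41 and MRPL33 were no longer called (0.12 and 0.14). MRPL33 also lost its call with DMSO alone and without any one of 4 arrays of the line, and its second probe gave 0.22 with an adjusted p of 0.145. With DMSO alone as the control 4 of the 79 genes rose. Both other risers were non-coding, MRPL42P5 (0.55, adjusted p = 0.0192) and MRPL20-AS1 (0.43, adjusted p = 0.00463). Neither was called with median scaling or with DMSO alone, and MRPL42P5 was also lost in the authors' processed values, in a fit to the 7 arrays of the line (adjusted p = 0.0505), and without dilazep replicate 2 (0.0954) or DMSO replicate 3 (0.0637).

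In LNCaP the largest falls were in a different order. MRPL47, the counterpart of bacterial L29, had log2 levels of 9.07, 8.95 and 8.37 with dilazep, against 10.27 and 10.18 with H2O and 10.11 and 10.16 with DMSO. The groups lay far apart, with replicate 4 lowest among the dilazep arrays, and the log2 change was -1.38 (SE 0.16, adjusted p = 5.17e-05). The second probe of MRPL47 changed by only -0.27 (adjusted p = 0.113). MRPS18C, one of 3 human relatives of bacterial S18, had 10.87, 10.73 and 10.66 with dilazep, against 12.01 and 11.81 with H2O and 12.05 and 11.92 with DMSO. This is a change of -1.20 (SE 0.13, adjusted p = 2.37e-05) with no overlap. MRPL39, a mitochondria-specific protein near the exit tunnel, had 10.10, 10.06 and 9.91 with dilazep, against 11.31 and 10.92 with H2O and 11.05 and 11.09 with DMSO. It changed by -1.07 (SE 0.13, adjusted p = 5.46e-05), again with every dilazep array below every control.

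MRPL3, the counterpart of L3 near the catalytic centre, changed in LNCaP by -0.86 (SE 0.11, adjusted p = 0.0001). Its second probe gave -0.16 there (adjusted p = 0.235) but -1.03 in LNCaP-abl, where the main probe gave -0.75. MRPL32, whose precursor is cut by the mitochondrial m-AAA protease before assembly, changed by -0.80 (SE 0.10). MRPL30 changed by -0.75 (SE 0.14, adjusted p = 0.00131), with a second probe at -0.11 (adjusted p = 0.502). MRPL51 changed by -0.72 and MRPL13 by -0.70 (SE 0.09 each). For all of these the main probe's dilazep arrays were below every LNCaP control. Among genes always described, MRPS30 changed by -0.68, MRPS34 by -0.54, MRPL11 and MRPL44 by -0.53 each, MRPS18A by -0.41, MRPS22 by -0.35 and MRPS7 by -0.30, all past the threshold. The last 3 are the less firm: none was called with median scaling (adjusted p of 0.0812 for MRPS18A, 0.0576 for MRPS22 and 0.118 for MRPS7), MRPS18A was lost with H2O alone (0.136) and without dilazep replicate 4 (0.0778) or H2O replicate 3 (0.0584), and MRPS7 was lost without any one of 6 arrays (up to 0.153, without dilazep replicate 1). MRPL10 (0.06), MRPL12 (-0.03), MRPL41 (0.03), MRPS16 (-0.01), MRPL45 (-0.06) and MRPS12 (-0.05) were not called in LNCaP. MRPL45, which holds the ribosome at the inner membrane, was not called in LNCaP-abl either (0.04), but its second probe gave -0.41 there and -0.85 in LNCaP, both called, and the mean of its probes was called in LNCaP (-0.46). One other probe of MRPS12 gave -0.56 in LNCaP, also called.

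In LNCaP 4 genes rose. MRPS25, a mitochondria-specific small subunit protein, had log2 levels of 8.99, 8.76 and 8.90 with dilazep, against 8.18 and 8.15 with H2O and 8.16 and 8.10 with DMSO, without overlap. The change was 0.74 (SE 0.10, adjusted p = 8.99e-05). MRPL57 had 9.26, 9.16 and 9.78 with dilazep, against 8.57 and 8.54 with H2O and 8.80 and 8.64 with DMSO, a change of 0.76 (SE 0.13, adjusted p = 0.000736). Its second probe, detected on 9 arrays, pointed the other way (-0.36, adjusted p = 0.196), and the mean of both was not called (0.20, adjusted p = 0.317). MRPS10 changed by 0.42 (adjusted p = 0.00752) and MRPS6 by 0.37 (adjusted p = 0.00461), both counterparts of bacterial proteins.

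**Figure D2:**
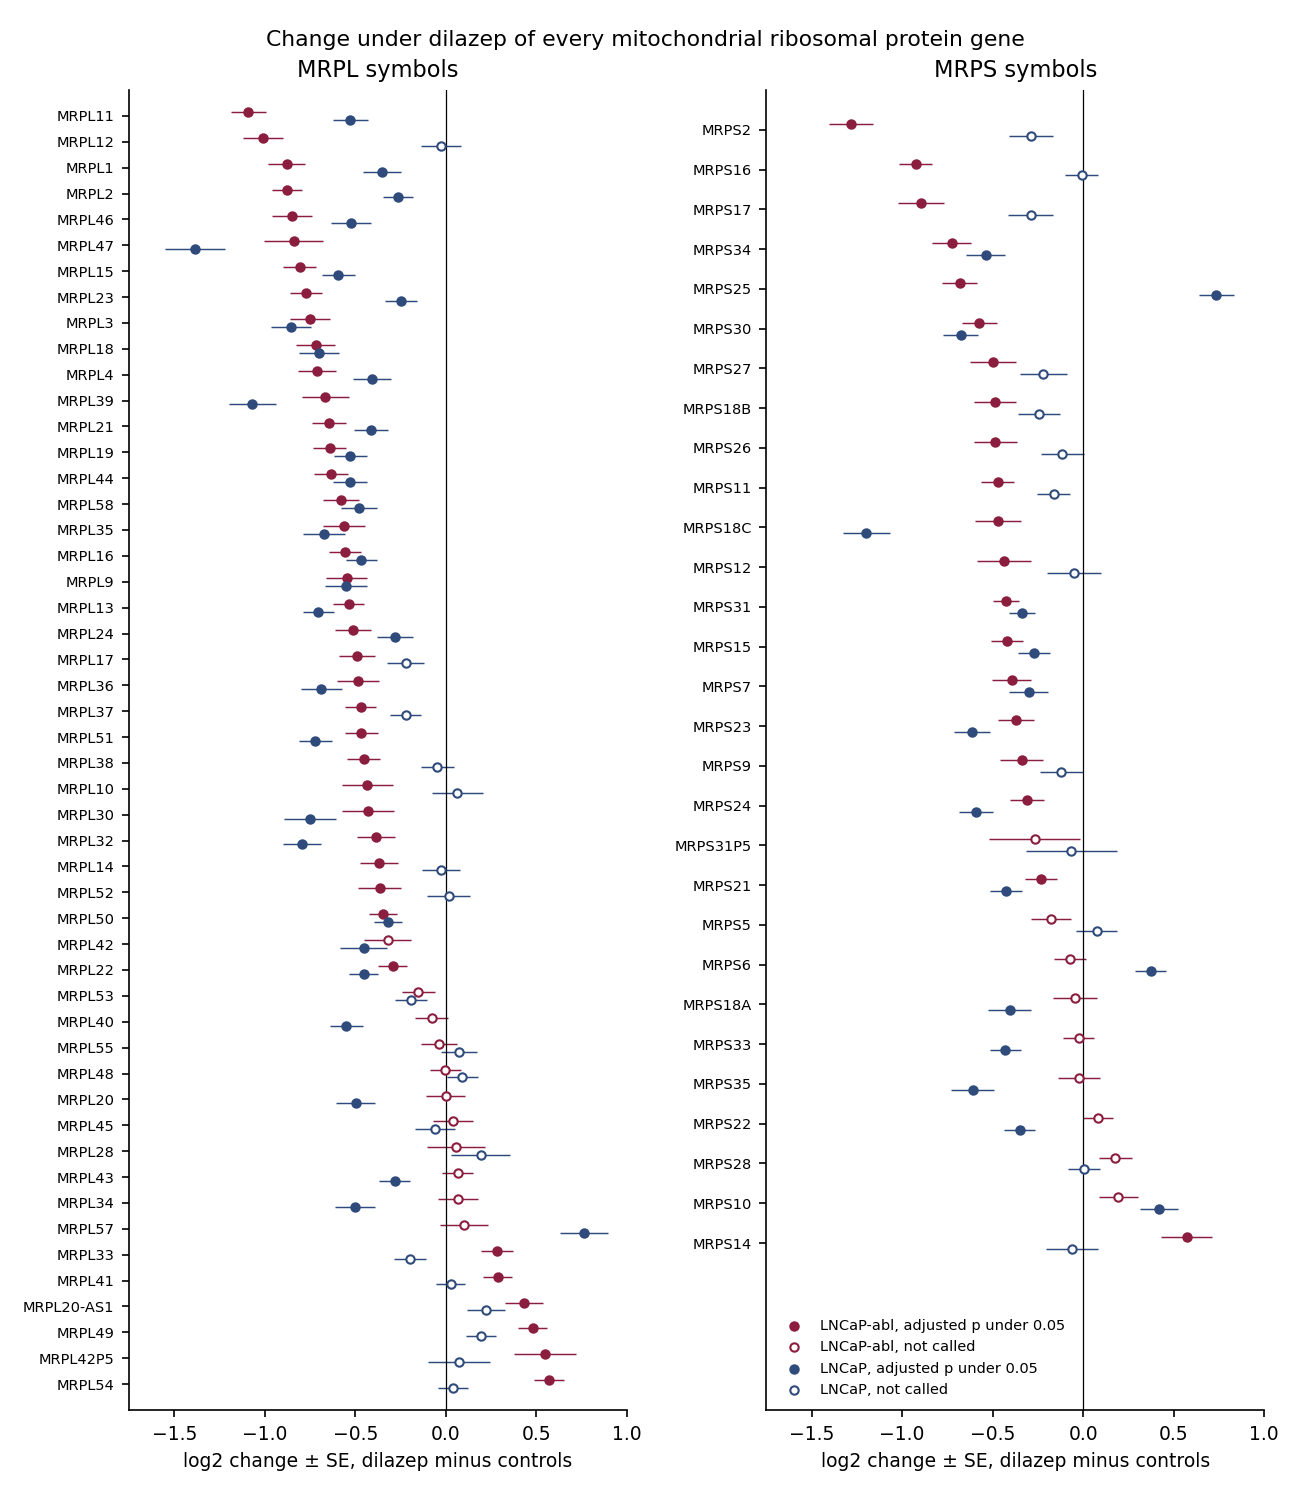
Log2 change with dilazep (mean of 3 dilazep arrays minus the average of the H2O and DMSO means) with its SE for every MRPL and MRPS gene in LNCaP-abl (red) and LNCaP (blue), ordered by the change in LNCaP-abl. Filled points passed an adjusted p under 0.05, and most filled points of both lines lie left of 0.

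Between the subunits, the shares of genes that fell were 33 of 50 for MRPL and 19 of 29 for MRPS in LNCaP-abl, with median log2 changes of -0.46 and -0.39. In LNCaP they were 31 of 50 and 13 of 29, with medians of -0.38 and -0.27. With subunits taken from the structure, 34 of 50 large and 18 of 26 small subunit genes fell in LNCaP-abl, and 33 of 50 large and 11 of 26 small subunit genes in LNCaP. These are descriptions of lists whose genes share the same arrays, and no test of the difference between subunits was made. Large subunit proteins with a bacterial counterpart fell in 24 of 29 cases in LNCaP-abl (median -0.55) and 22 of 29 in LNCaP (-0.47), while mitochondria-specific ones fell in 10 of 21 (-0.32) and 11 of 21 (-0.28). In the small subunit 11 of 16 bacterial-type genes fell in LNCaP-abl (median -0.37) and 5 of 16 in LNCaP (-0.14), while 7 of 10 mitochondria-specific ones fell in LNCaP-abl (-0.46) and 6 of 10 in LNCaP (-0.34). Of 6 genes chosen for their place around the exit tunnel (MRPL22, MRPL23, MRPL24, MRPL39, MRPL44 and MRPL45), 5 fell in each line, all but MRPL45. The second probe of MRPL45 did fall, by -0.41 in LNCaP-abl and -0.85 in LNCaP. In the central protuberance 4 of 7 fell in each line, with MRPL18 (-0.72 in LNCaP-abl and -0.70 in LNCaP), MRPL35 (-0.56 and -0.67) and MRPL46 (-0.85 and -0.52) in both, MRPL38 in LNCaP-abl alone (-0.45, against -0.05 in LNCaP) and MRPL40 in LNCaP alone (-0.55, against -0.08 in LNCaP-abl). The other probes of MRPL35 differed from its main probe, at -0.70 and -0.22 in LNCaP-abl and 0.12 and 0.24 in LNCaP.

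The lines shared many of the genes that fell. Of the 79 genes, 35 (44.3%) fell in both lines, where 11% of all genes tested did. They were 67.3% of those that fell in LNCaP-abl and 79.5% of those that fell in LNCaP, and over all genes the shares were 47.3% and 55.8%. In LNCaP-abl 65.8% of the 79 genes fell and in LNCaP 55.7%, where 23.3% and 19.7% of all genes did. Larger shares in each line by themselves give a larger overlap, and an overlap beyond that was not tested. No gene rose in both, and 8 were called in neither. The MRPL group had 26 of 50 genes lower in both lines and the MRPS group 9 of 29. Across genes, which are not independent replicates, Pearson's r between the changes in the lines was 0.42 over the 79 genes, 0.58 over the MRPL genes and 0.12 over the MRPS genes, and 0.55 over all genes tested. Genes of one line share its arrays, and the lines share none.

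**Figure D3:**
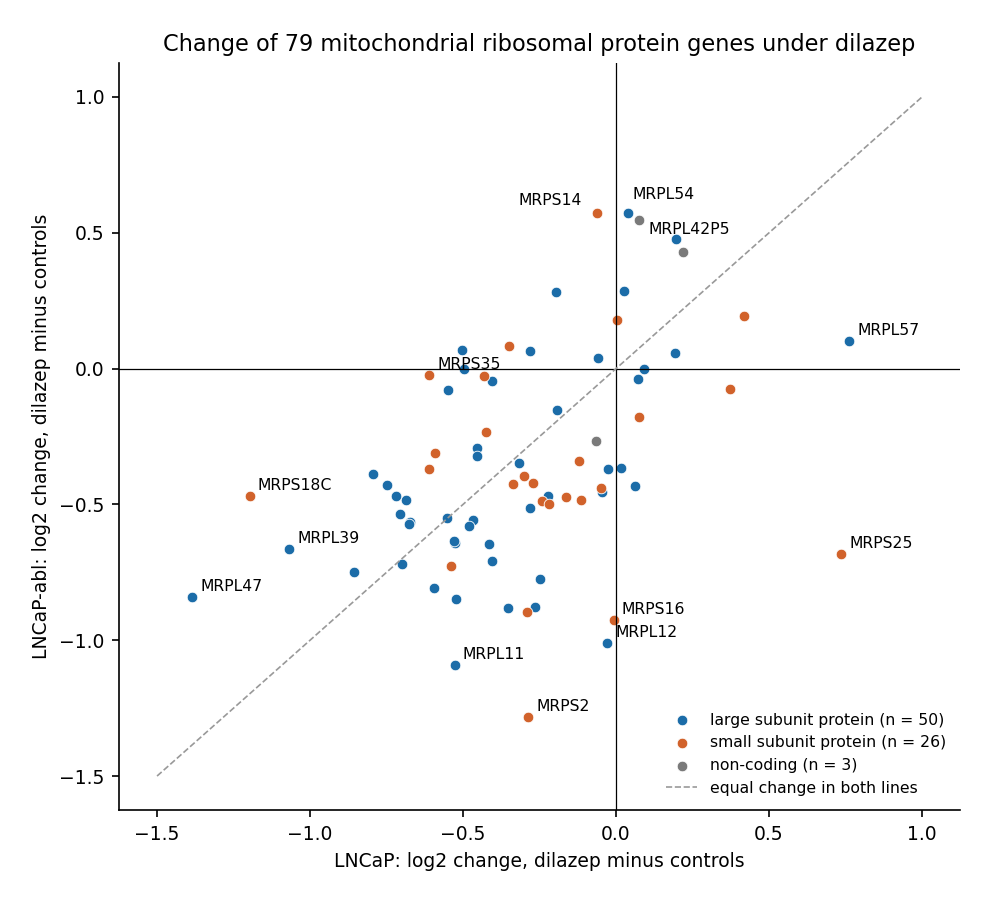
Log2 change with dilazep in LNCaP-abl (vertical axis) against that in LNCaP (horizontal axis) for the 79 genes, coloured by the subunit in the known structure. Most points fall in the lower left part, MRPS25 lies at 0.74 in LNCaP and -0.68 in LNCaP-abl, and MRPL12 and MRPS16 lie near 0 in LNCaP and low in LNCaP-abl.

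The test of the difference between the responses picked out 24 genes. The response was more negative in LNCaP-abl for 12 and more positive for 12, where 17.9% of all genes tested were more negative and 15.9% more positive. These shares of the 79 genes were near those of all genes. MRPS25 had opposite changes in the lines, the only one of the 79 genes called in both directions: in LNCaP-abl its log2 levels were 8.07, 8.26 and 8.02 with dilazep, against 8.94 and 8.76 with H2O and 8.67 and 8.83 with DMSO. It fell there (-0.68, adjusted p = 8.1e-05) and rose in LNCaP, as given above, so that the difference of the responses was -1.42 (SE 0.13, adjusted p = 1.42e-05). MRPS2 (-0.99, adjusted p = 0.00123), MRPL12 (-0.98, adjusted p = 0.000648) and MRPS16 (-0.92, adjusted p = 0.000313) followed. For MRPL12 the LNCaP levels were 10.78, 11.05 and 10.74 with dilazep, against 10.84 and 10.95 with H2O and 10.81 and 10.93 with DMSO. These overlap, unlike its levels in LNCaP-abl. The difference for MRPL57 (-0.66, adjusted p = 0.0189) was 0.35 in its other probe (adjusted p = 0.410), and was not called with the mean of its probes (-0.16) or with DMSO alone (-0.54, adjusted p = 0.106).

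More positive responses in LNCaP-abl were those of MRPS18C (0.73, adjusted p = 0.00968), MRPS14 (0.63, adjusted p = 0.0299), MRPS35 (0.59, adjusted p = 0.0172), MRPL34 (0.57, adjusted p = 0.0151) and MRPL54 (0.53, adjusted p = 0.00467). MRPS18C fell in both lines, less in LNCaP-abl (-0.47) than in LNCaP (-1.20). MRPS35, a mitochondria-specific small subunit protein, had 11.46, 11.40 and 11.13 in LNCaP-abl with dilazep, against 11.29 and 11.46 with H2O and 11.48 and 11.17 with DMSO. In LNCaP it had 10.65, 10.59 and 10.36 with dilazep, against 11.16 and 11.16 with H2O and 11.06 and 11.20 with DMSO. The groups overlapped in LNCaP-abl and not in LNCaP. With median scaling, which moved the median difference of all genes to -0.22 (-0.02 with quantile normalization), 0 of the 79 genes were more positive and 29 more negative, and over all genes more positive calls fell to 22.7% of calls, against 47%. The 5 genes named here as more positive thus lost their calls with that scaling, at 0.24 to 0.45. MRPS14 also lost its call with either vehicle alone, in the authors' processed values, and without any one of 7 arrays (adjusted p up to 0.077, without LNCaP-abl dilazep replicate 3). Without LNCaP-abl H2O replicate 2, 7 genes were more positive, and with DMSO alone as the control 5 were more positive and 6 more negative.

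**Figure D4:**
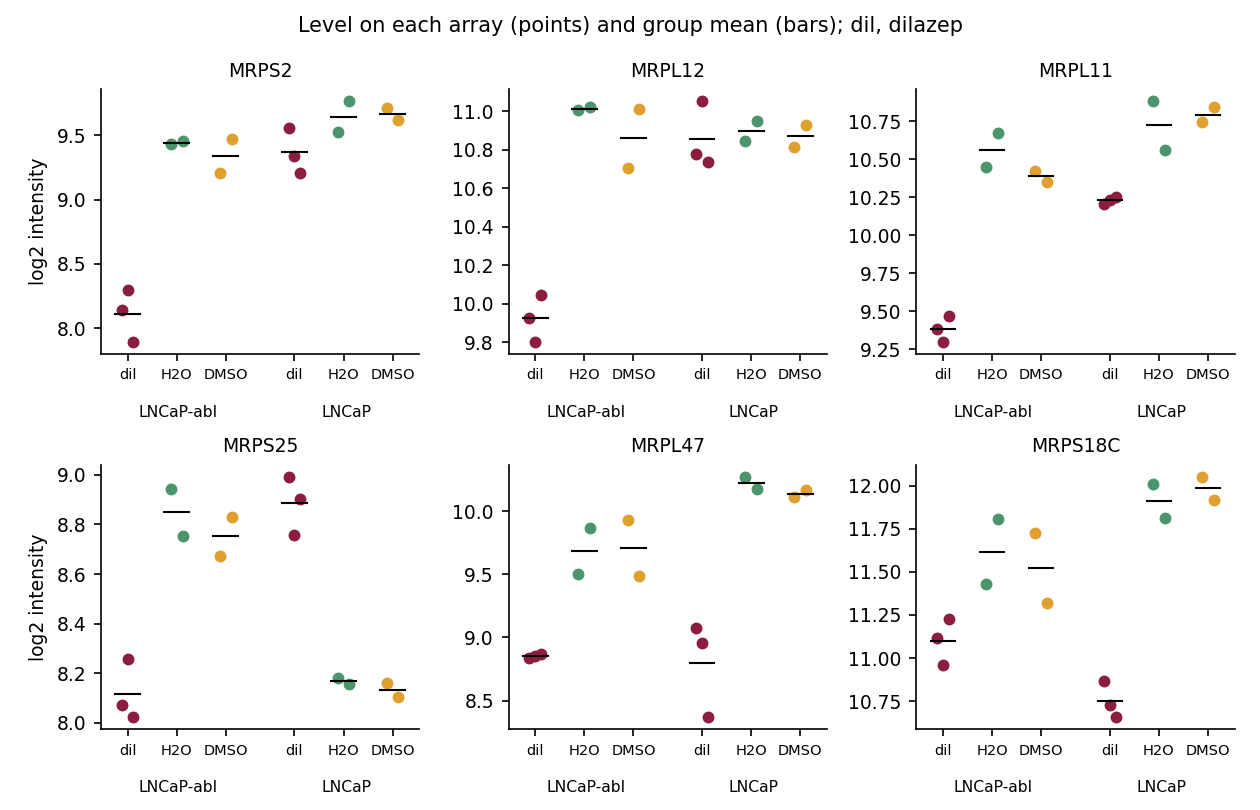
Log2 intensity of 6 genes on each of the 14 arrays (points) with group means (bars), dilazep left of H2O and DMSO, LNCaP-abl left of LNCaP. MRPS2 and MRPL12 are low only on the LNCaP-abl dilazep arrays, MRPS25 is at like levels on the LNCaP-abl dilazep arrays and the LNCaP controls, and MRPL47 and MRPS18C are low on the dilazep arrays of both lines.

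Without dilazep, genes of this set differed between the lines in both directions. The shares of the 79 genes that were higher (19%) and lower (27.8%) in LNCaP-abl were near those of all genes. In the controls, 15 genes were higher and 22 lower in LNCaP-abl than in LNCaP, where 25.1% of all genes tested were higher and 23.9% lower, and the median log2 difference was -0.04 for MRPL and -0.06 for MRPS genes (0.00 for all genes). MRPS6, the counterpart of bacterial S6, was highest: its control levels were 11.99, 12.14, 11.96 and 12.20 in LNCaP-abl, against 11.06, 11.04, 11.13 and 11.04 in LNCaP, a log2 difference of 1.01 (SE 0.08, adjusted p = 8.33e-07). MRPS25 (0.65), MRPL35 (0.54), MRPS5 (0.50) and MRPL49 (0.45) were also higher in LNCaP-abl, and MRPS5 lost its call with DMSO alone (0.40, adjusted p = 0.0523). MRPL50, a mitochondria-specific large subunit protein, was lowest, with 10.73, 10.79, 10.64 and 10.69 in LNCaP-abl, against 11.82, 11.67, 11.73 and 11.70 in LNCaP. This is a difference of -1.02 (SE 0.07, adjusted p = 2.63e-07). Neither of these 2 genes overlapped between the lines. MRPL34 (-0.91), MRPL41 (-0.70), MRPS10 (-0.67) and MRPL22 (-0.60) were lower in LNCaP-abl. With DMSO alone as the control the counts higher and lower were 6 and 13, and with H2O alone 8 and 11. The count of genes higher in LNCaP-abl was 9 without LNCaP H2O replicate 1 and 9 without LNCaP-abl DMSO replicate 1.

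Under dilazep, 14 genes were higher and 25 lower in LNCaP-abl than in LNCaP, where 25.8% of all genes tested were higher and 28.8% lower. With median scaling these counts became 6 and 44, as the median of all genes moved to -0.21, and higher calls over all genes became 29.9%, against 47.2%. MRPS2 was lowest (-1.26, SE 0.13, adjusted p = 6.9e-06): its LNCaP-abl levels given above compare with 9.55, 9.34 and 9.21 on the LNCaP dilazep arrays, without overlap. MRPL50 (-1.05), MRPL12 (-0.93), MRPS10 (-0.90) and MRPL11 (-0.85) were also lower in LNCaP-abl. The highest were MRPS35 (0.79), MRPL20 (0.77), MRPL49 (0.73), MRPL35 (0.65) and MRPS18A (0.61). A second probe of MRPL20 gave 0.09 (adjusted p = 0.581), those of MRPL35 gave -0.34 and -0.02, the mean of the MRPL35 probes was not called (0.10, adjusted p = 0.300), and MRPS18A was not called with median scaling (0.35, adjusted p = 0.0695). MRPL20 itself fell in LNCaP (-0.50, adjusted p = 0.00262) and not in LNCaP-abl (0.00), where its second probe fell (-0.42, adjusted p = 0.0102). The probes of MRPS33 also differed: its main probe gave -0.03 in LNCaP-abl and -0.43 in LNCaP, and its second 0.69 and -0.66, both called, a difference chosen for mention after its values were seen.

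The vehicles did not separate these genes. Between DMSO and H2O, averaged over the lines, 0 of 79 genes and 0% of all genes tested passed an adjusted p under 0.05 in limma. At an unadjusted p under 0.05, 2 of the 79 genes and 532 of the 11983 genes tested did. The median log2 difference, DMSO minus H2O, was 0.02 for MRPL genes and -0.01 for MRPS genes.

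Other parts of the mitochondrial translation system changed with dilazep less evenly. Of 4 mitochondrial ribosomal proteins under other symbols, CHCHD1 and GADD45GIP1 fell in LNCaP-abl (-0.63 and -0.76) and DAP3 rose (0.42), while only CHCHD1 was called in LNCaP (-0.56). Over all genes tested, 23.3% fell and 27.2% rose in LNCaP-abl, and 19.7% fell and 24.2% rose in LNCaP. Of 21 assembly factors, 11 fell and 3 rose in LNCaP-abl, and 3 fell and 2 rose in LNCaP. The share of assembly factors that fell was thus above that of all genes in LNCaP-abl (52.4%) and below it in LNCaP (14.3%). C1QBP, a mitochondrial matrix protein that binds the ribosome's precursors, was the largest fall among them in both lines (-0.98 and -1.11). MRM2 (-0.77) and MRM3 (-0.73), which methylate the large ribosomal RNA, fell in LNCaP-abl and were not called in LNCaP (0.10 and 0.06), and the test of that difference gave adjusted p of 0.00162 and 0.00101. Of 15 translation factors, 7 fell and 2 rose in LNCaP-abl and 6 fell and 2 rose in LNCaP, with the initiation factor gene MTIF2 lower in both (-0.78 and -0.51) and the elongation factor gene GFM1 higher in both (0.42 and 0.53). Among 5 transcription genes, TFAM, which packages mitochondrial DNA, fell by 1.17 in LNCaP-abl and by 0.26 in LNCaP on the log2 scale, and TFB2M was not called in LNCaP-abl (-0.21) and fell by 1.10 in LNCaP. POLRMT fell in LNCaP-abl (-0.41) and was not called in LNCaP (-0.01). TEFM was not called in LNCaP-abl (0.02) and fell in LNCaP (-0.65), and MTERF1 was called in neither line.

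Of 7 regulators of mitochondrial genes, 4 fell and 1 rose in each line, where 23.3% of all genes tested fell in LNCaP-abl and 19.7% in LNCaP. The transcription factor gene MYC changed by -2.05 in LNCaP-abl and -0.77 in LNCaP, both called, and GABPA by -0.12 (adjusted p = 0.627) and -1.42 (adjusted p = 0.000108). YY1 changed by -0.51 (adjusted p = 0.000113) in LNCaP-abl and -0.02 in LNCaP, and the coactivator gene PPARGC1A rose in LNCaP-abl (1.13) and fell in LNCaP (-0.67). PPRC1 fell in LNCaP-abl (-0.40) and was the riser in LNCaP (0.27). ESRRA fell in LNCaP-abl (-0.41) and was not called in LNCaP (-0.11). GABPB1 was not called in LNCaP-abl (-0.14) and fell in LNCaP (-0.96). PPARGC1A was dim and detected on only 11 of 14 arrays. Its LNCaP levels were 5.08, 4.77 and 4.71 with dilazep, against means of 5.55 with H2O and 5.50 with DMSO. NRF1 was not among the genes measured. Whether these changes bear on the ribosomal genes was not tested. The comparison lists moved less than the mitochondrial ribosome: of 75 cytosolic ribosomal protein genes 16 fell and 1 rose in LNCaP-abl (median -0.07) and 14 fell and 4 rose in LNCaP (-0.02). Of 74 nuclear genes for respiratory chain subunits, 24 fell and 13 rose in LNCaP-abl (median -0.10) and 22 fell and 7 rose in LNCaP (-0.10). The shares that fell in LNCaP-abl and LNCaP were 21.3% and 18.7% of the cytosolic list, near those of all genes. They were 32.4% and 29.7% of the respiratory chain list.

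The RefSeq promoter table held windows, from 250 bases before to 50 bases after the start, for 69 of the 79 genes, 68 of them protein-coding, and the first listed window of each gene was used. The ETS letters CCGGAAG, as printed above for MRPL47, MRPL3 and MRPL51, stood in 28 of the 68 windows (41.2%), against 14.2% of 15843 windows of protein-coding genes and 10.7% of all 27305 windows. The YY1 letters AAGATGGC stood in 29.4%, against 3.91% and 3.03%. The NRF1 letters, capitalised above for MRPL30, stood in 11.8%, against 8.58% and 6.28%. The CCAAT box (CCAAT) stood in 27.9%, against 36.4% and 35.7%, the E-box CACGTG in 8.82%, against 8.88% and 7.43%, and the ATF4 letters TGATGNAA in 1.47%, against 2.53% and 3.67%. Each motif was read on both strands and counted on its own, also where it overlapped another. The ETS letters were in 16 of 45 windows of genes that fell in LNCaP-abl, 17 of 38 of those that fell in LNCaP and 6 of 14 of those that fell in neither line. In the same order, the YY1 letters were in 15, 13 and 2 of these windows (33.3%, 34.2% and 14.3%) and the CCAAT box in 16, 13 and 1 (35.6%, 34.2% and 7.14%). The first 2 of these sets share genes, the last one is small, and no difference between them was tested. A match describes the letters of the window and not a bound site.

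**Figure D5:**
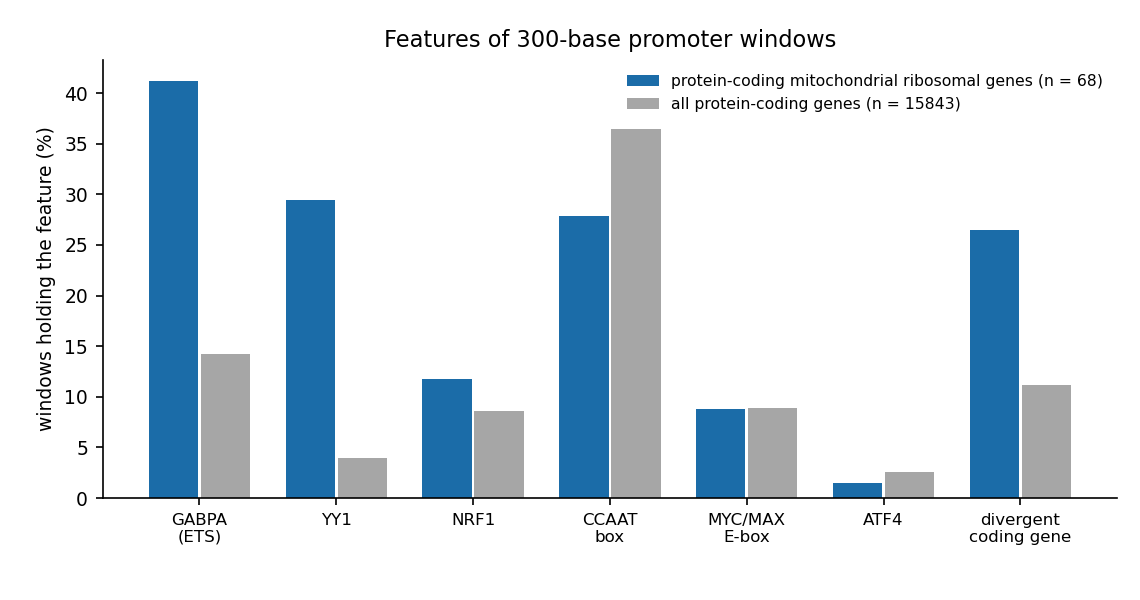
Share of 300-base promoter windows that hold each motif, or that have the start of a protein-coding gene on the opposite strand within 1000 bases upstream, for 68 protein-coding mitochondrial ribosomal genes (blue) and all 15843 protein-coding genes (grey). The ETS and YY1 letters and divergent gene pairs are more frequent in the blue bars (41.2%, 29.4% and 26.5%) than in the grey ones (14.2%, 3.91% and 11.2%).

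Many of these genes start back to back with another gene. A protein-coding gene on the opposite strand began within 1000 bases upstream for 18 of the 68 (26.5%), against 11.2% of all protein-coding genes. All 18 partners were measured, counting MRPL46 and MRPS11, whose starts lie 320 bases apart on chromosome 15, as partners of each other. Among these 18, 15 ribosomal genes fell in LNCaP-abl, with the partner lower in 6 cases and higher in 2, and 9 fell in LNCaP, with the partner lower in 3 and higher in 1. Of all 18 partners, 8 were lower and 2 higher in LNCaP-abl, and 6 were lower and 3 higher in LNCaP. Over all genes tested, 23.3% were lower and 27.2% higher in LNCaP-abl, and 19.7% and 24.2% in LNCaP. Whether partners change together was not tested. MRPL46 and MRPS11 fell together in LNCaP-abl (-0.85 and -0.47), and MRPS11 was not called in LNCaP (-0.16), though its second probe was there (-0.31, adjusted p = 0.0436). MRPL18 and TCP1, which encodes a subunit of the cytosolic chaperonin, lie 210 bases apart and fell together in both lines (-0.72 and -1.16 in LNCaP-abl, -0.70 and -0.79 in LNCaP). MRPL57, not called in LNCaP-abl and higher in LNCaP, lies 106 bases from SKA3, a spindle gene whose log2 change was -2.97 in LNCaP-abl and -0.57 in LNCaP. The named genes of these pairs were chosen after their values were seen.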

How the data were processed

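Per the file headers, the deposited signal table pairs each probe's linear intensity with a detection p-value. They also deposited processed values on a log2 scale, made with lumi per the submitters' processing notes (version not given in the sources used here), which served as an alternative only.

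Signals were background corrected with normexp using the detection p-values, quantile normalized and log2 transformed (neqc, offset 16, limma 3.58.1, R 4.3.3). Where a gene had several kept probes, the one with the highest mean stood for it. Probes were named from the platform annotation, of 22912 processed probes 16501 with 1 symbol, 5 with several and 6406 unnamed here. All 14 arrays entered 1 fit of 6 group means (lmFit, eBayes), with 6 two-sided contrasts, Benjamini-Hochberg adjustment over 11983 genes and a threshold of 0.05. The fit was checked on simulated data with known changes. Changes are on the log2 scale of intensity, which understates those of dim probes. The number of arrays limits the precision.

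Members, gene lists and subunit roles were chosen with earlier results of these data known. Named genes were the 8 largest called rises and 8 largest called falls per line, the 5 largest each way in the other contrasts, and a set always described for its place in the ribosome or its disease links. MRPS36 had no probe under that name. Other probes of a named gene are given where they disagree. Alternatives covered background correction, scaling, filters, the gene's value, controls, the samples fitted, array weights, the replicate block and each array left out. Plots used matplotlib 3.10.9 under Python 3.11.15.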

Additional observations from a re-analysis of the deposited data

Results flagged for a closer look

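The response to dilazep differed between the lines, by the interaction term of the limma fit, for 12 genes in the more positive direction and 12 in the more negative direction in LNCaP-abl relative to LNCaP. The 5 largest differences below 0 were those of MRPS25 (-1.42), MRPS2 (-0.99), MRPL12 (-0.98), MRPS16 (-0.92) and MRPL57 (-0.66). The 5 largest above 0 were those of MRPS18C (0.73), MRPS14 (0.63), MRPS35 (0.59), MRPL34 (0.57) and MRPL54 (0.53). For MRPS25 all 3 dilazep arrays lay below the 4 controls in LNCaP-abl and above the 4 controls in LNCaP. No group held 4 or more arrays, so single arrays were not screened as outliers.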

How the results depend on the processing

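With each array left out in turn, the counts of genes higher and lower ranged from 5 to 7 and 46 to 53 for dilazep in LNCaP-abl, from 4 to 5 and 38 to 44 in LNCaP, from 7 to 13 and 10 to 15 for the difference of the responses, from 9 to 16 and 15 to 24 between the lines' controls, and from 11 to 14 and 21 to 26 between the lines under dilazep. It stayed at 0 for DMSO minus H2O. The medians for MRPL and MRPS genes ranged from -0.48 to -0.42 and -0.41 to -0.37 in LNCaP-abl, -0.40 to -0.35 and -0.29 to -0.23 in LNCaP, -0.06 to 0.02 and -0.22 to -0.12 for the difference, -0.06 to -0.02 and -0.11 to -0.0015 between controls, -0.15 to -0.07 and -0.15 to -0.0631 under dilazep, and -0.02 to 0.05 and -0.01 to 0.01 for DMSO minus H2O. Median scaling gave 3 genes higher in LNCaP-abl, 0 more positive and 29 more negative responses, and 6 higher and 44 lower between the lines under dilazep. Its MRPL and MRPS medians were -0.63 and -0.61 in LNCaP-abl, -0.30 and -0.19 in LNCaP, -0.305 and -0.43 for the difference, -0.35 and -0.28 under dilazep, and -0.0503 and -0.0712 for DMSO minus H2O. Without background correction the MRPL medians were -0.40 in LNCaP-abl and -0.32 in LNCaP, and the MRPS medians -0.14 for the difference and -0.0753 under dilazep. In the authors' processed values the MRPL medians were -0.40 and -0.31 and the MRPS medians -0.34 in LNCaP-abl, -0.13 for the difference and -0.0438 under dilazep. With the mean of the kept probes the MRPS medians were -0.094 for the difference and -0.0784 under dilazep, and with every kept probe on its own -0.094 and -0.035. With DMSO alone as the control, 4 genes were higher in LNCaP-abl, 5 responses more positive and 6 more negative, 6 genes higher and 13 lower between controls, and the MRPS median difference was -0.0755. With H2O alone, 8 were higher and 11 lower between controls, and the MRPL median in LNCaP was -0.33. The replicate block gave 2 higher and 24 lower in LNCaP, 1 more positive and 6 more negative response, and medians of -0.33 for MRPL in LNCaP and -0.0875 for the MRPS difference. Under it the rises of MRPS10 (0.28, adjusted p = 0.169) and MRPS6 (0.33, adjusted p = 0.0805) in LNCaP were not called in limma. The replicate numbers were not taken to pair the samples in the main fit. Correlations of same-numbered arrays' deviations lay between -0.177 and 0.054. In groups of 2 arrays the deviations mirror each other, so these correlations cannot decide whether the numbers pair the samples. The cause of these moves was not tested. Other probes of a gene reversed 6 named values: MRPL57 in LNCaP (-0.36) and for the difference (0.35), MRPL45 in LNCaP-abl (-0.41), MRPS12 in LNCaP-abl (0.11), and MRPL35 under dilazep (-0.34 and -0.016). The MRPS12 probe was detected on 6 arrays and the MRPL57 probe on 9. Of the other named values under these alternatives, leaving out arrays aside, 777 kept their direction and side of the threshold, 51 lost their call and 3 gained one.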
